A study of Mus musculus with 6 samples.

Results

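The mouse genes Dbp, Tef and Hlf encode the PAR bZIP proteins, and Nfil3 encodes a related bZIP protein that shares their DNA site. These 4 genes were described in the lungs of Zpbp2 knockout (KO) and wild type (WT) mice. They were picked out by their gene symbols among the 47069 genes of the count matrix, each symbol matched 1 gene, and all 4 passed the filter on low counts.

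RNA-seq was done on whole lungs of 3 WT mice (WT4, WT5 and WT6) and 3 KO mice (KO4, KO5 and KO6), with 1 library per mouse. WT mice were C57BL/6J. KO mice were of the B6.129S7-Zpbp2tmZuk/Mmjax strain on a C57BL/6J background, and the deletion, carried in every cell, takes out the 5′ part of Zpbp2 (exons 1 to 3). All were adult mice of one colony, with no treatment named in the labels, kept under a light/dark cycle. Lungs were taken at zeitgeber time 10 (ZT10), that is 10 h after lights on. With a single time point, a level at ZT10 cannot tell a change in amplitude from a change in phase. The labels do not give the sex of the mice.

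PAR bZIP proteins are named for their proline- and acidic amino acid-rich domain beside the basic leucine zipper. DBP, TEF and HLF activate transcription from D-box sites, and NFIL3 (E4BP4), which lacks that domain, represses from the same sites. In the circadian clock, CLOCK and BMAL1 drive the PAR bZIP genes through E-boxes, and the REV-ERB and ROR receptors set Nfil3 through ROR elements. In liver and kidney these factors control genes of drug and haem metabolism, and in the brain a gene of vitamin B6 metabolism. NFIL3 is also needed for the development of natural killer cells.

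In the GRCm38 build, Dbp (ENSMUSG00000059824) lies on chromosome 7 from 45705088 to 45710203 on the plus strand. Tef (ENSMUSG00000022389) lies on chromosome 15 from 81802421 to 81826863 on the plus strand. Nfil3 (ENSMUSG00000056749) lies on chromosome 13 from 52967209 to 52981073 on the minus strand. Hlf (ENSMUSG00000003949) is the one member on the chromosome of Zpbp2, chromosome 11, from 90336536 to 90390895 on the minus strand, 8.16 Mb from Zpbp2. All 4 are annotated as protein-coding, and their longest annotated coding sequences encode 325 (Dbp), 301 (Tef), 295 (Hlf) and 462 (Nfil3) amino acids.

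The clock elements named above were searched for in the stretch from 250 bases before to 50 bases after each RefSeq start, on both strands, in GRCm38.p6. RefSeq gave 1 such window each for Dbp, Hlf and Nfil3 and 2 for Tef. The E-box CACGTG was present in both Tef windows, at bases -127 and -138 from the start, and 7.15% of all 32851 windows held it. The ROR element core AGGTCA was present on the reverse strand of the Nfil3 window at base -12, and 16.3% of all windows held it. The D-box TTANGTAA was found in none of the 5 windows, against 2.32% of all windows, and the Dbp and Hlf windows held none of these motifs. No matches overlapped. These matched stretches are shown because they carry the letters of the 2 clock inputs to the family. Each is written 5′ to 3′ on the strand of its gene with the matched letters in capitals, and in Nfil3 the capitals are the reverse complement of AGGTCA. The stretch from the first Tef window lies inside an annotated exon of transcript Tef-202, that from the second window in no annotated exon, and that of Nfil3 inside an annotated exon of Nfil3-201.
Tef, first window, chr15:81802534-81802563, plus strand: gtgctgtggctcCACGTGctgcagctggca
Tef, second window, chr15:81811264-81811293, plus strand: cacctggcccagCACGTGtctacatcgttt
Nfil3, chr13:52981034-52981063, minus strand: ggcgctcggaacTGACCTactaacacacat
Each of the 5 windows had more GC than the median window, and the motif shares over all windows were not matched for GC. The GC content was 60.3% for Dbp, 67.3% for Hlf, 81.7% for Nfil3, and 64.0% and 62.0% for Tef, against a median of 52.7% over all windows. The Nfil3 window held 54 CpG dinucleotides, against a median of 7 over all windows.

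Total gene counts ran from 19981428 to 46796908 per library, and 3 counts equalled 0.0629 to 0.148 CPM, the count relative to a library size scaled by the TMM method. Zpbp2 was counted 1 time in WT4, 2 times in both WT5 and WT6, and 0 times in each KO mouse, so this depth does not test the KO label. Xist lay between 715 and 994 CPM in all 6 libraries, while 4 Y-linked genes reached at most 9 counts in any library. Lung epithelial markers were abundant in every library, with a summed level of 46250 to 55870 CPM in WT and 36010 to 47190 CPM in KO mice. None of these 6 markers passed edgeR's quasi-likelihood test, against 2 at an unadjusted p below 0.05, 2 by DESeq2 and 0 by edgeR's exact test, and all 6 had log2 fold changes below 0. Of 6 endothelial markers 1 fell (Cldn5, a call lost in each fit without WT4, WT5, WT6, KO4, KO5 or KO6, with adjusted p-values of 0.0528 to 0.138), and their summed level was 3208 to 3452 CPM in WT and 2968 to 3752 CPM in KO mice. The libraries of the genotypes differed in other marker lists. All 7 monocyte markers rose in KO lungs (summed level 209.3 to 254.4 CPM in WT, 386.7 to 484.7 CPM in KO mice), as did 3 of 6 neutrophil markers (56.3 to 94.5 CPM in WT, 149.3 to 168.2 CPM in KO mice). For the neutrophil markers DESeq2 called 6 of 6 and edgeR's exact test 4 of 6, and 6 of 6 had an unadjusted p below 0.05. Of 9 heat shock genes 7 fell (2796 to 3873 CPM in WT, 1392 to 1496 CPM in KO mice). Of the 6 fits that left out 1 mouse, each monocyte call held in 1 to 4, each neutrophil call in 2 to 3 and each heat shock call in 2 to 5. With the replicate number as a block, 2 of 7 monocyte markers, 0 of 6 neutrophil markers and 5 of 9 heat shock genes were called. None of 6 B cell markers passed edgeR's quasi-likelihood test, against 6 at an unadjusted p below 0.05 and 6 each by DESeq2 and edgeR's exact test, and their summed level was 906.9 CPM in KO5, 214.4 to 248.6 CPM in the other KO mice and 109.5 to 127.3 CPM in WT mice. Of all 17037 tested genes 4347 had an unadjusted p below 0.05. The quasi-likelihood test called 1089 genes, DESeq2 1913 and edgeR's exact test 1486. The part of these marker and heat shock shifts in the values below was not tested.

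The PAR bZIP genes and Nfil3 did not pass the test between KO and WT lungs at ZT10. Of the 17037 genes tested, 1089 (6.39%) had a Benjamini-Hochberg adjusted p of at most 0.05 by edgeR's quasi-likelihood test, and 0 of the 4 members were among them. Of all tested genes 634 rose (3.72%) and 455 fell (2.67%). At an unadjusted p below 0.05 there were 0 of 4 members, against 4347 of all tested genes. At the adjusted threshold DESeq2 and edgeR's exact test each called 0 of 4 as well, beside 1913 and 1486 of all genes. Tef had an unadjusted p of 0.0243 by DESeq2, and of 0.0340 without KO4 by edgeR's quasi-likelihood test. By the latter test the unadjusted p of Hlf was 0.04955 without the filter and 0.03 with the replicate number as a block. It was 0.02863 without WT6 and 0.02835 without KO5. Other settings gave larger unadjusted p-values for Tef and Hlf. These were 0.1079 and 0.117 by edgeR's exact test. By edgeR's quasi-likelihood test they were 0.1864 and 0.184 without WT4, and 0.1725 and 0.218 without KO6. The log2 fold changes of KO over WT were below 0 for all 4, with a median of -0.09, against a median of 0.00 and 49.4% below 0 over all tested genes. In bulk lung, fewer cells of a type and less RNA per cell cannot be told apart.

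**Figure D1:**
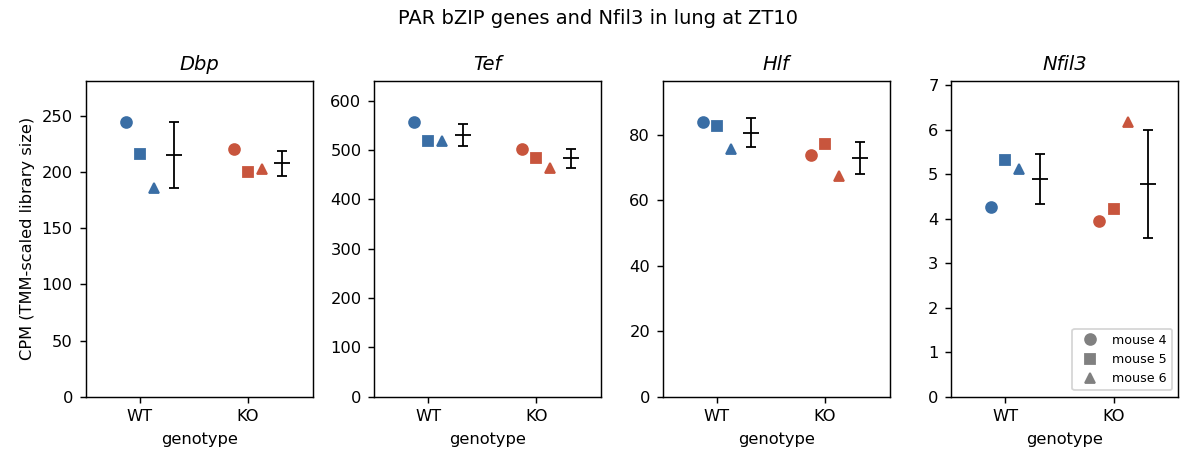
CPM (vertical axes, from 0, on TMM-scaled library sizes) of Dbp, Tef, Hlf and Nfil3 in each WT mouse (blue) and KO mouse (red), with the mean and SD of the 3 mice in black. The KO mice lie below the WT mice for Tef, by 9.0% in the fitted value, while the groups overlap for Dbp, Hlf and Nfil3.

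Dbp, whose protein is the albumin D-site binding factor, is the member most often used as a direct readout of CLOCK:BMAL1 activity. It measured 244.1, 215.6 and 185.8 CPM in WT4, WT5 and WT6, and 220.1, 199.7 and 202.6 CPM in KO4, KO5 and KO6. WT4 was the highest and WT6 the lowest of the 6 mice, so all KO mice lay inside the WT range. The mean was 215.2 ± 29.1 CPM in the WT group and 207.5 ± 11.0 CPM in the KO group (SD, n = 3 each). The log2 fold change was -0.05 (standard error 0.10, 95% interval -0.29 to 0.18, edgeR quasi-likelihood adjusted p = 0.792). On the linear scale that interval runs from -18.2% to 13.6%. Without WT4 the log2 fold change was 0.05. The last 737 bases of Dbp overlap Sphk2, a sphingosine kinase gene on the opposite strand with 638 to 1540 counts per library, and the strand setting of the counting is not given in the sources used here.

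Tef, which encodes thyrotroph embryonic factor, had the highest counts of the family. It measured 556.6, 519.0 and 517.8 CPM in WT4, WT5 and WT6, and 501.5, 484.7 and 464.2 CPM in KO4, KO5 and KO6. Every KO mouse lay below every WT mouse, as was so for 15.6% of all tested genes (the groups did not overlap for 32.6% in either direction). The mean was 531.1 ± 22.1 CPM in the WT group and 483.5 ± 18.6 CPM in the KO group (SD, n = 3 each). The log2 fold change was -0.14 (standard error 0.06, 95% interval -0.27 to 0.00), which is -9.0% with an interval from -17.3% to 0.20%. Its adjusted p was 0.204 by edgeR's quasi-likelihood test, and its unadjusted p of 0.0538 ranked 4493 among the 17037 tested genes. The exact permutation test gave p = 0.1, the smallest that 3 mice against 3 allow. Its start overlaps the antisense gene Gm17597 by 193 bases, which had 10 to 34 counts per library.

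Hlf encodes hepatic leukaemia factor. It measured 83.8, 82.6 and 75.6 CPM in WT4, WT5 and WT6, and 73.8, 77.2 and 67.4 CPM in KO4, KO5 and KO6. WT4 and WT5 were the highest, and KO5 lay above WT6. The mean was 80.7 ± 4.45 CPM in the WT group and 72.8 ± 4.94 CPM in the KO group (SD, n = 3 each). The log2 fold change was -0.15 (standard error 0.07, 95% interval -0.31 to 0.01, edgeR quasi-likelihood adjusted p = 0.232), or -9.6% with an interval from -19.1% to 0.95%.

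Nfil3, the repressor of the group, had the fewest counts. In WT4, WT5 and WT6 it measured 4.27, 5.32 and 5.11 CPM, from 106, 111 and 158 counts. The KO4, KO5 and KO6 libraries gave 3.96, 4.22 and 6.17 CPM, from 81, 201 and 125 counts. KO6 was the highest and KO4 the lowest of the 6 mice. The mean was 4.90 ± 0.557 CPM in the WT group and 4.78 ± 1.21 CPM in the KO group (SD, n = 3 each). The log2 fold change was -0.04 (standard error 0.20, 95% interval -0.51 to 0.43, edgeR quasi-likelihood adjusted p = 0.932). In percent the interval runs from -30.0% to 35.1%, so changes within that range cannot be told apart for Nfil3 in these libraries. The sign of its fold change turned without WT5, without KO4 or without KO5, with log2 values of 0.02 to 0.07.

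The spread between mice was several times the counting error for Dbp and Tef, and nearer to it for Nfil3 among WT mice. The coefficient of variation of Dbp was 13.5% among WT mice and 5.31% among KO mice, where counting alone gives 1.37% and 1.38%. For Tef it was 4.15% and 3.86%, with counting at 0.870% and 0.908%. For Hlf it was 5.51% and 6.79%, with counting at 2.23% and 2.36%. For Nfil3 it was 11.4% and 25.3%, with counting at 9.09% and 9.19%. The members therefore differed in how large a genotype difference could have been seen, from Tef with the narrowest interval to Nfil3 with the widest. Exact permutation tests over the mice gave p = 0.8 for Dbp, 0.2 for Hlf and 0.8 for Nfil3.

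Divided by gene length, the levels fell into a high pair, an intermediate gene and a low gene. Over the union of annotated exons, Dbp stood at 71.9 ± 9.73 CPM per kb in WT and 69.3 ± 3.68 CPM per kb in KO mice (SD, n = 3 each). Tef stood at 67.5 ± 2.80 CPM per kb in WT and 61.5 ± 2.37 CPM per kb in KO mice. The order of Dbp and Tef depended on the length used and on the mouse. With the longest transcript instead, Dbp was at 117.1 ± 15.9 and Tef at 120.6 ± 5.01 CPM per kb in WT mice, and Tef exceeded Dbp in WT6 with either length. Over the union of exons Dbp exceeded Tef in all 3 KO mice, and with the longest transcript Tef exceeded Dbp in KO5. Over the union of exons, Hlf stood at 12.1 ± 0.666 CPM per kb in WT and 10.9 ± 0.740 CPM per kb in KO mice. Nfil3 stood at 2.42 ± 0.275 CPM per kb in WT and 2.36 ± 0.597 CPM per kb in KO mice. Hlf lay below the high pair and above Nfil3 in each of the 6 mice with either length.

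**Figure D2:**
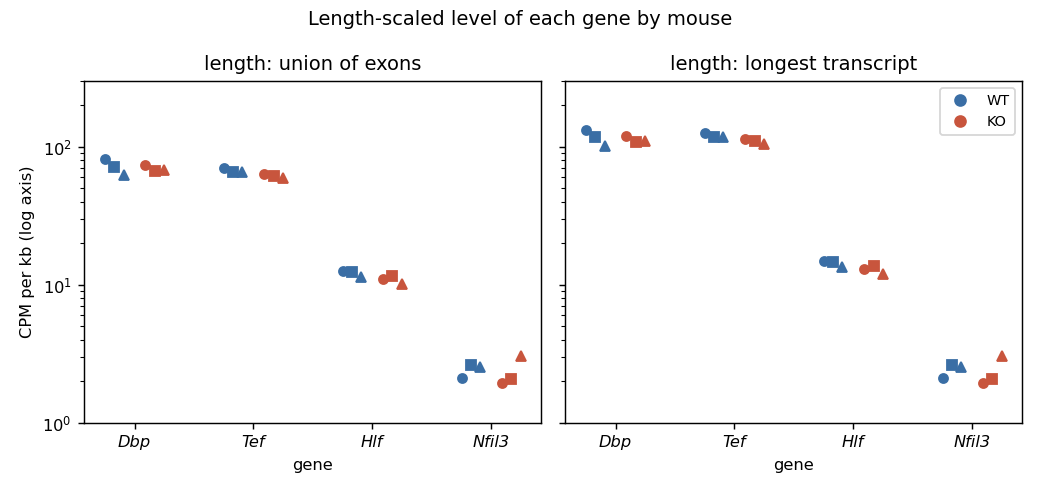
CPM per kb (log axis) of the 4 genes in each WT mouse (blue) and KO mouse (red), with length taken as the union of exons (left) or the longest transcript (right). Dbp and Tef lie together at the top, Hlf between 10.1 and 14.9 CPM per kb, and Nfil3 between 1.95 and 3.05 CPM per kb.

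Since activators and repressor share the D-box, their ratio was computed within each mouse, from CPM per kb over the union of exons. The ratio of Dbp to Nfil3 was 38.7, 27.4 and 24.6 in WT4, WT5 and WT6, and 37.6, 32.1 and 22.2 in KO4, KO5 and KO6. The ratio of Tef to Nfil3 was 33.6, 25.1 and 26.1 for WT4 to WT6, against 32.6, 29.6 and 19.4 for KO4 to KO6. The ratio of Hlf to Nfil3 was 5.96, 4.71 and 4.49 for WT4 to WT6, against 5.66, 5.55 and 3.32 for KO4 to KO6. The groups overlapped for each ratio, and KO6, with the most Nfil3, had the lowest value of all. On the log2 scale the ratio of Dbp to Nfil3 averaged 4.89 ± 0.34 (SD, n = 3) in WT and 4.90 ± 0.39 (SD, n = 3) in KO mice. These ratios were not tested, as they combine values already described.

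**Figure D3:**
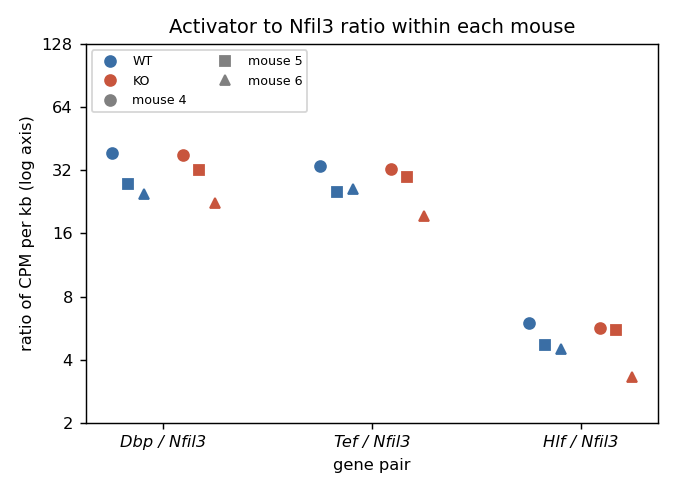
Ratio of the level of each activator to that of Nfil3 (CPM per kb over the union of exons, log axis) in each WT mouse (blue) and KO mouse (red). The genotypes overlap for every pair, and KO6 has the lowest ratio in each, at 22.2, 19.4 and 3.32.

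Of the 17 genes of the clock loops that feed the family, all were tested and 2 fell, Ciart and Per2, beside 2.67% of all tested genes that fell. At an unadjusted p below 0.05 there were 8 of 17, against 4347 of the 17037 tested genes. DESeq2 called 4 of 17, and 1913 genes in all. The median log2 fold change of the list was -0.11, with 10 of 17 below 0. Both genes that fell encode repressors of E-box activity, which act on the same E-box drive as Dbp. Ciart measured 39.2, 39.3 and 37.8 CPM in WT4, WT5 and WT6, and 28.9, 27.4 and 28.1 CPM in KO4, KO5 and KO6. Per2 measured 161.6, 168.1 and 181.6 CPM for WT4 to WT6, against 124.7, 135.7 and 124.6 CPM for KO4 to KO6. Their log2 fold changes of -0.46 and -0.41 (edgeR quasi-likelihood adjusted p = 0.0120 and 0.0223) were larger in size than those of all 4 members. Both calls were lost without WT5, without WT6 or without KO6, and held without each of the other mice, with adjusted p-values between 0.0129 and 0.107 over the 6 fits.

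The genes that encode the E-box activators, Clock, Arntl (which encodes BMAL1), Npas2 and Arntl2, gave 0 of 4 calls by edgeR's quasi-likelihood test, with 1 of 4 at an unadjusted p below 0.05 and 0 of 4 by DESeq2 and by edgeR's exact test. Arntl measured 3.62, 3.79 and 3.69 CPM in WT4, WT5 and WT6, and 4.11, 7.13 and 4.30 CPM in KO4, KO5 and KO6. All KO mice lay above the WT mice for Arntl, and KO5 stood apart from the other KO mice (log2 fold change 0.50, edgeR quasi-likelihood adjusted p = 0.228). The gene at an unadjusted p below 0.05 was Clock. It measured 78.62, 83.67 and 81.02 CPM for WT4 to WT6, against 64.72, 72.25 and 74.26 CPM for KO4 to KO6. Its log2 fold change was -0.20 (edgeR quasi-likelihood unadjusted p = 0.0140, adjusted p = 0.102). Over all tested genes the groups did not overlap for 32.6% in either direction, and 4347 of 17037 had an unadjusted p below 0.05. DESeq2 called 1913 genes in all and edgeR's exact test 1486. The REV-ERB and ROR receptor genes, whose proteins act on Nfil3, gave 0 of 5 calls by edgeR's quasi-likelihood test, with 3 of 5 at an unadjusted p below 0.05, 2 of 5 by DESeq2 (Nr1d1 and Nr1d2) and 0 of 5 by edgeR's exact test. Nr1d1, which encodes REV-ERBα, measured 278.7, 310.1 and 216.6 CPM for WT4 to WT6, against 208.1, 200.1 and 221.3 CPM for KO4 to KO6. KO6 lay above WT6 for Nr1d1, and the log2 fold change was -0.36 (edgeR quasi-likelihood adjusted p = 0.136), so its call depended on the tool.

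The clock genes known to carry D-boxes, Per1, Per2, Per3, Cry1, Nr1d1, Nr1d2, Rora and Rorb, lie downstream of the family. Of these 8, 1 fell (Per2) and 0 rose by edgeR's quasi-likelihood test, beside 2.67% of all tested genes that fell. DESeq2 called 3 of 8 (Per2, Nr1d1 and Nr1d2), and 1913 genes in all. At an unadjusted p below 0.05 there were 5 of 8, against 4347 of the 17037 tested genes. Log2 fold changes were below 0 for 5 of 8, with a median of -0.13, against 49.4% of all tested genes. Rorb had the largest value above 0, a log2 fold change of 0.67 (edgeR quasi-likelihood adjusted p = 0.339), at no more than 0.94 CPM in any mouse. Per1 and Per3 had log2 fold changes of 0.05 and 0.09, with overlapping groups (edgeR quasi-likelihood adjusted p = 0.675 and 0.438). The KO mice all lay below the WT mice for Cry1, Nr1d2 and Rora, as for 15.6% of all tested genes. The log2 fold changes of Cry1, Nr1d2 and Rora were -0.22, -0.15 and -0.11 (edgeR quasi-likelihood adjusted p = 0.0941, 0.119 and 0.185).

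**Figure D4:**
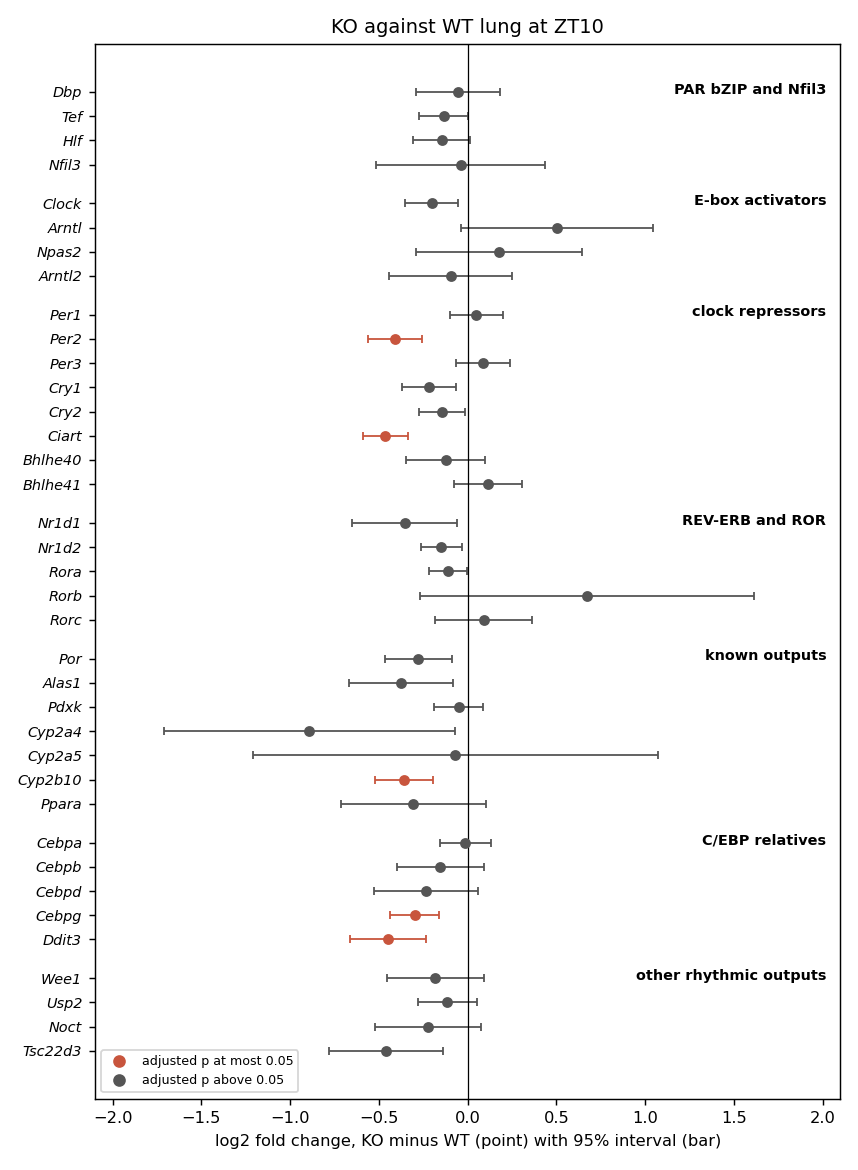
Log2 fold change of KO over WT (point) with its 95% interval (bar) for the 4 members and the tested genes of 6 related lists, in red where the adjusted p was at most 0.05. The 4 members lie between -0.15 and -0.04 with intervals that cross 0, and the 5 red genes (Per2, Ciart, Cyp2b10, Cebpg and Ddit3) all lie below 0.

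Genes described in other organs as outputs of the PAR bZIP proteins were mostly at or near 0 counts in the lung. Of 16 such genes 7 passed the filter, and the other 9 had at most 9 counts in any library, with Cyp2c37, Cyp2c50, Cyp3a11, Cyp4a10, Cyp4a14 and Cyp7a1 at 0 counts in all 6 mice. Of the 7 tested, 1 fell (Cyp2b10) and 0 rose by edgeR's quasi-likelihood test, beside 2.67% of all tested genes that fell. All 7 had a log2 fold change below 0, with a median of -0.31, against 49.4% below 0 over all tested genes. At an unadjusted p below 0.05 there were 4 of 7, against 4347 of the 17037 tested genes. DESeq2 called 3 of 7, adding Por and Alas1, and called 1913 genes in all. The summed level of the 16 genes was 1454 to 1654 CPM in WT and 1083 to 1381 CPM in KO mice, and the summed level of the lung epithelial markers had ranges of 46250 to 55870 CPM and 36010 to 47190 CPM. Whether that shift bears on the output genes was not tested.

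Cyp2b10, a cytochrome P450 of drug metabolism, measured 412.0, 426.4 and 476.1 CPM in WT4, WT5 and WT6, and 345.9, 327.6 and 352.4 CPM in KO4, KO5 and KO6. Every KO mouse lay below every WT mouse, as was so for 15.6% of all tested genes. The mean was 438.2 ± 33.7 CPM in the WT group and 341.9 ± 12.8 CPM in the KO group (SD, n = 3 each). The log2 fold change was -0.36 (standard error 0.07, edgeR quasi-likelihood adjusted p = 0.0345). The call held without KO4 (adjusted p = 0.0489) and was lost without WT4, WT5, WT6, KO5 or KO6, with adjusted p-values of up to 0.128. Cyp2b10 has close relatives among the Cyp2b genes, so its reads are uncertain where the copies are near-identical.

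Por, the electron donor of the microsomal P450 enzymes, measured 446.6, 438.2 and 447.6 CPM for WT4 to WT6, against 395.5, 323.1 and 380.6 CPM for KO4 to KO6. Its log2 fold change was -0.28 (edgeR quasi-likelihood adjusted p = 0.0880, DESeq2 adjusted p = 0.0135). Alas1, the rate-limiting enzyme of haem synthesis, measured 444.9, 462.3 and 547.6 CPM for WT4 to WT6, against 418.2, 313.4 and 389.2 CPM for KO4 to KO6. Its log2 fold change was -0.38 (edgeR quasi-likelihood adjusted p = 0.117, DESeq2 adjusted p = 0.0198). For both genes every KO mouse lay below every WT mouse, as for 15.6% of all tested genes. In both, KO5 was the lowest mouse, and the call depended on the tool.

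Pdxk, the pyridoxal kinase gene that depends on the family in the brain, measured 76.4, 70.3 and 67.5 CPM in WT4, WT5 and WT6, and 67.2, 69.4 and 70.2 CPM in KO4, KO5 and KO6. The groups overlapped, with a log2 fold change of -0.05 (edgeR quasi-likelihood adjusted p = 0.634), the value nearest 0 among the 7 output genes tested. Cyp2a4 had the value farthest below 0, a log2 fold change of -0.89 (edgeR quasi-likelihood adjusted p = 0.165), at no more than 1.10 CPM in any mouse. Cyp2a4 and Cyp2a5 are near-identical, so their reads are uncertain.

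**Figure D5:**
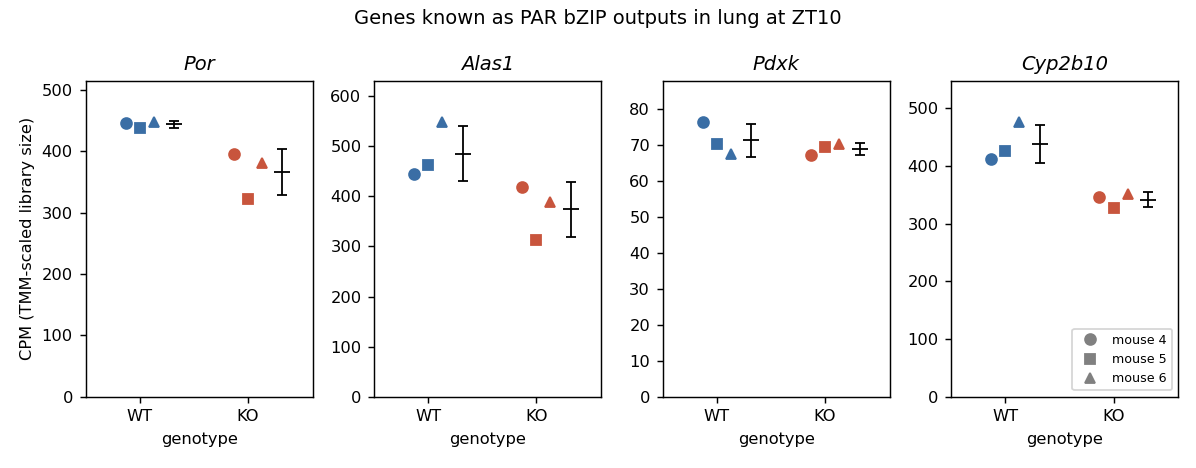
CPM (vertical axes, from 0, on TMM-scaled library sizes) of Por, Alas1, Pdxk and Cyp2b10 in each WT mouse (blue) and KO mouse (red), with the mean and SD of the 3 mice in black. The KO mice lie below the WT mice for Por, Alas1 and Cyp2b10, of which Cyp2b10 passed edgeR's quasi-likelihood test, and the groups overlap for Pdxk.

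The genes of the C/EBP proteins, bZIP relatives whose sites resemble the D-box, were described beside the family. Of 6 listed, 5 were tested and 2 fell (Cebpg and Ddit3), beside 2.67% of all tested genes that fell. All 5 had a log2 fold change below 0, with a median of -0.24, against 49.4% below 0 over all tested genes. Cebpg measured 129.5, 139.7 and 145.2 CPM in WT4, WT5 and WT6, and 112.5, 108.7 and 116.2 CPM in KO4, KO5 and KO6 (log2 fold change -0.30, edgeR quasi-likelihood adjusted p = 0.0350). Ddit3, which encodes the stress-induced factor CHOP, measured 24.1, 24.7 and 23.6 CPM for WT4 to WT6, against 15.6, 19.5 and 17.9 CPM for KO4 to KO6 (log2 fold change -0.45, edgeR quasi-likelihood adjusted p = 0.0380). The Cebpg call was lost in each fit that left out 1 mouse (WT4, WT5, WT6, KO4, KO5 or KO6), with adjusted p-values of 0.0550 to 0.144. The Ddit3 call held without KO4 and without KO5 and was lost without WT4, WT5, WT6 or KO6, with adjusted p-values of up to 0.153. Cebpa, with a log2 fold change of -0.01 (edgeR quasi-likelihood adjusted p = 0.921), was the list's value nearest 0. Of the heat shock genes 7 of 9 fell in KO lungs, as Ddit3 did. Their summed level was highest in WT6 (3873 CPM), where Ddit3 was lowest among WT mice. It was lowest in KO5 (1392 CPM), where Ddit3 was highest among KO mice. The part of the heat shock genes in the Ddit3 values was not tested.

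The genes whose level followed each member most closely over the 6 mice were not the same for the 4 members. By Pearson's r of log2 CPM, among genes with a mean log2 CPM of at least 3, those nearest Dbp were Slc38a5 (r = 0.990), Pcdhga10 (r = 0.989) and Mrpl11 (r = 0.988). Those nearest Tef were Fgf1 (r = 0.993), Timp2 (r = 0.990) and Col16a1 (r = 0.989). Those nearest Hlf were Sec16b (r = 0.998), Meaf6 (r = 0.992) and Zbtb48 (r = 0.985), and those nearest Nfil3 were 3110043O21Rik (r = 0.972), Cyc1 (r = 0.970) and Ptgfr (r = 0.968). An r above 0.95 was reached by 18 genes for Dbp, 31 for Tef, 33 for Hlf and 4 for Nfil3. All values come from the same 6 libraries and are a description picked as the highest of many genes.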

How the data were processed

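RNA was extracted from mouse lung with Trizol and RNeasy columns and libraries were made with a stranded TruSeq mRNA kit. Per the labels, the submitters' processing notes name Trimmomatic 0.36, STAR 2.5.3a, Picard 2.9.0 and HTSeq 0.6.0, with the GRCm38 build. The values the authors deposited are raw counts per Ensembl gene, 1 column per mouse. The annotation release and the strand setting of the counting are not given in the sources used here.

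KO was compared with WT in R 4.3.3 with edgeR 4.0.16 (filterByExpr with a minimum count of 10 and a minimum total of 15, TMM factors, glmQLFit and glmQLFTest), without covariates. P-values were adjusted by the Benjamini-Hochberg method over the 17037 genes kept, and a gene was called at an adjusted p of at most 0.05 with no fold threshold. The standard error is the log2 fold change divided by the square root of the F statistic. Two-sided exact permutation tests used log2 CPM. Floors and counting variation cover counting error only. Gene positions and lengths were read from GENCODE mouse release 21, and promoter windows from RefSeq.

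The alternatives were DESeq2 size factors, upper-quartile factors, a minimum of 10 counts per library, no filter, DESeq2 1.42.0, the exact test of edgeR, the replicate number as a block, each mouse left out, and another gene length. The fits were tested on simulated data. Tables and figures used pandas 2.3.3, Matplotlib 3.10.9, SciPy 1.17.1 and NumPy 2.4.6 in Python 3.11.15. The members and gene lists were chosen with earlier results of these data known. The genes named are the 4 members, genes of the lists that were called or had the highest or lowest fold change, and the 3 nearest genes of each member by r. Per1, Per3, Cry1, Clock, Arntl, Nr1d1, Nr1d2, Rora, Cldn5, Ncr1, Por and Alas1 were named after their values were seen.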

Additional observations from a re-analysis of the deposited data

How the results depend on the processing

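The count of members called was 0 in each of the 7 other settings and the 6 fits that left out a mouse. The log2 fold change of Dbp was -0.1508 to 0.0466 over the fits that left out 1 mouse, and above 0 only without WT4. That of Nfil3 was -0.2574 to 0.0693, and above 0 without WT5 (0.0201), KO4 (0.0693) and KO5 (0.0446). Tef (-0.16 to -0.10) and Hlf (-0.19 to -0.09) stayed below 0 in these fits, with adjusted p-values of 0.157 to 0.441 and 0.161 to 0.481. DESeq2 called 1913 genes against 1089 and, of the lists, 4 clock loop genes, 3 D-box targets and 3 output genes. WT and KO mice share the replicate numbers 4 to 6. Same-numbered mice did not deviate together (r = -0.03, -0.15 and -0.02), and not every mouse correlated best with its own number, so the numbers were not taken as pairs. With the replicate block, 66 genes were called, with 0 in the clock loop, D-box and output lists. Leaving out 1 mouse gave 1 to 1278 genes (254 without WT4, 1 without WT5, 63 without WT6, 117 without KO6), 0 to 2 clock loop genes, 0 to 1 D-box targets and 0 to 1 output genes. No normalization moved the median of all genes by over 0.1 on the log2 scale. The causes were not tested. With 3 mice a group and 1 time point, the differences near 10% in Tef and Hlf did not pass edgeR's quasi-likelihood test (adjusted p = 0.204 and 0.232). The smallest difference that this design could detect was not tested.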

Other observations

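The other rhythmic genes downstream of the clock, Wee1, Usp2, Noct and Tsc22d3, gave 0 of 4 calls by edgeR's quasi-likelihood test, with 1 of 4 at an unadjusted p below 0.05, 1 of 4 by DESeq2 and 1 of 4 by edgeR's exact test. Of all tested genes 4347 of 17037 had an unadjusted p below 0.05, and DESeq2 called 1913 and edgeR's exact test 1486. All 4 rhythmic genes had log2 fold changes below 0, with a median of -0.20, against 49.4% below 0 over all tested genes. Tsc22d3, a glucocorticoid-induced gene (GILZ), measured 267.2, 300.4 and 362.1 CPM in WT4, WT5 and WT6, and 200.4, 260.8 and 214.6 CPM in KO4, KO5 and KO6 (log2 fold change -0.46, edgeR quasi-likelihood adjusted p = 0.0916). Usp2, a deubiquitinase gene, lay nearest 0, with a log2 fold change of -0.11.

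Since NFIL3 is needed for natural killer cells, 7 markers of these cells were set beside Nfil3. Ncr1, the NKp46 receptor gene, was the 1 of 7 that rose, beside 3.72% of all tested genes that rose. All 7 had log2 fold changes above 0, with a median of 0.73, against a median of 0.00 over all tested genes. The monocyte, B cell and neutrophil markers also all lay above 0, with larger medians of 1.46, 1.94 and 1.01. At an unadjusted p below 0.05 there were 5 of the 7 natural killer cell markers, against 4347 of the 17037 tested genes. DESeq2 called 3 of these 7 markers, and 1913 genes in all. With the replicate number as a block, 0 of the 7 were called. The Ncr1 call held without KO5 and was lost without WT4, WT5, WT6, KO4 or KO6, with adjusted p-values of 0.0400 to 0.163 over the 6 fits by edgeR's quasi-likelihood test. The summed level of the 7 markers was 28.2 to 40.3 CPM in WT mice and 43.9 to 58.8 CPM in KO mice, with no overlap, while Nfil3 stood at 4.90 ± 0.557 and 4.78 ± 1.21 CPM (SD, n = 3 each). Among single tested genes the groups did not overlap for 32.6% in either direction. The number of natural killer cells and the RNA of each marker per cell cannot be told apart in bulk lung.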
